A study of Mus musculus with 8 samples.

Results

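The genes described here stood lower than in untreated cells soon after LECT2 was added to mouse peritoneal macrophages and higher than in untreated cells 2 days later. They were chosen by their log2 ratios of LECT2-treated over untreated cells on the 4 arrays of the high dose. Probes needed a curated RefSeq mRNA accession and a signal well above background, in one or the other dye, on 2 or more of the 8 arrays. A gene was taken when such a probe had a value of at most -1 on both 3.5 h arrays and at least 1 on both 48 h arrays. On this log2 scale 1 unit is a doubling, positive values mean more RNA with LECT2, and each gene was counted once, by the brightest probe that met the rule. The rule found 32 genes among 16693 eligible genes, which is 0.192%, and the mirror rule, higher early and lower late, found 25. This balance turned under other settings: 6 against 12 with median centring of the matched files, and 157 against 161 without replicate 2. In 8 of the 32 genes the probe that met the rule was not the gene's brightest, and with the brightest probe taken first 24 genes remained.

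LECT2 (leukocyte cell-derived chemotaxin 2) is a protein secreted mainly by the liver that attracts leukocytes and acts on macrophages. Peritoneal macrophages from mice, of no stated strain, age or sex, were cultured in low-glucose medium with 20% serum and given 0, 0.5 (low dose) or 5 (high dose) µg/ml LECT2. Each dose was set against untreated cells of the same time on 2-colour Agilent arrays, at 3.5 h (written as 3 h in the labels of the RNA channels) and at 48 h, with 2 arrays for each of the 4 combinations. The 2 arrays of a combination came from separate experiments with different mice. The untreated RNA carried Cy5 and the LECT2 RNA Cy3 on every array, so the dyes were never exchanged.

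Macrophages answer a stimulus in waves. Immediate transcripts, many of them for inflammatory signals, appear within hours, while later waves change metabolism, membrane proteins and matrix. An array reads the balance of synthesis and decay, so an early drop and a late excess can each come from either. In these bulk cultures fewer cells of a type and less RNA per cell cannot be told apart.

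The columns of the deposited value table and the deposited scanner files did not all go together. For 7 of the 8 columns the ratios matched the scanner file recorded for another sample, with correlations from 0.99 to 1.0 over probes above background, and the low dose 3.5 h array of replicate 1 matched its own file with a correlation of 0.807. The results below follow the table's own labels, and each scanner file was used under the column it matched. With the files taken as they were recorded, the rule found 0 genes, and 0 of the 32 kept an early negative and a late positive value on all 4 high dose arrays. With the matched files all 32 kept both signs after loess normalization and with the scanner's processed signals, and 31 did so with median centring alone. The files were matched by their agreement with the value table, so these signs were largely fixed in advance. They do not tell which assignment is right, and the deposited data did not settle it. Under the matched files all 3.5 h arrays lay on 1 slide and all 48 h arrays on the other, so time and slide cannot be told apart. All 11 macrophage markers on the array were well above background in the untreated channel of all 8 arrays. With the high dose 1 of them rose and 4 fell at 3.5 h (limma, adjusted p under 0.05), and 0 passed at 48 h. The shares over all features tested were 10.2% rising and 11.7% falling at 3.5 h, and 4.34% and 6.94% at 48 h. The other 9 marker lists were detected in part, such as 14 of 18 T and NK cell markers and 10 of 12 B cell markers. The summed log2 level of 11 neutrophil markers, 5 of them detected on all arrays in the untreated channel, was 13.56 to 13.65 in untreated and 15.78 to 16.46 in LECT2-treated cells of the high dose 3.5 h arrays, and 13.16 to 13.44 against 14.85 to 15.59 at 48 h. Of these 11 markers 2 rose and 1 fell at 3.5 h, and 2 rose and 0 fell at 48 h. The 10 eligible ones had a median log2 ratio of 0.31 and then -0.13, and the brightest weigh most in a sum. With the high dose 3 of 17 mesothelium and fibroblast markers fell at 48 h. Their summed log2 level was 16.58 to 17.36 in untreated and 15.99 to 16.04 in treated cells there. The part of these cell types in the results was not tested. Between 56.4% and 71.7% of spots were well above background in the LECT2 channel. Cd209a, described as a receptor for LECT2 on macrophages, was not among the 32 genes and stood at -1.64 ± 0.45 at 3.5 h and -4.87 ± 0.45 at 48 h with the high dose (mean ± SE of the fit, n = 2).

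The 32 genes shared no single function. Grouped by their known roles, a grouping made after the genes were known, 8 were transcription factors, zinc finger genes or chromatin enzymes, 6 served metabolism, nutrient sensing or mitophagy, and 5 belonged to the cilium or centrosome. A further 3 concerned matrix, heparan sulfate or a receptor, 3 the ubiquitin pathway, 3 RNA binding or mitochondrial translation, and 4 had other roles. Of 39 lists of pathways and gene families, 3 held a member each and 29 of the 32 genes were on none. The 10 lists of cell type markers held none. The 39 lists were short, with 2 to 40 eligible genes each, so most of the 16693 eligible genes were on none either. The median member stood at -1.45 and -1.56 on the high dose 3.5 h arrays and at 1.24 and 1.31 on the 48 h arrays, as the rule required. The swing in the value table, the mean high dose value at 48 h minus that at 3.5 h, ran from 2.24 for Gatb to 5.91 for Tgfbi with a median of 3.07. The members had a median log2 brightness of 8.5, against 9.29 over all eligible genes. The values of single arrays are in the heat map of the 32 genes.

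**Figure D1:**
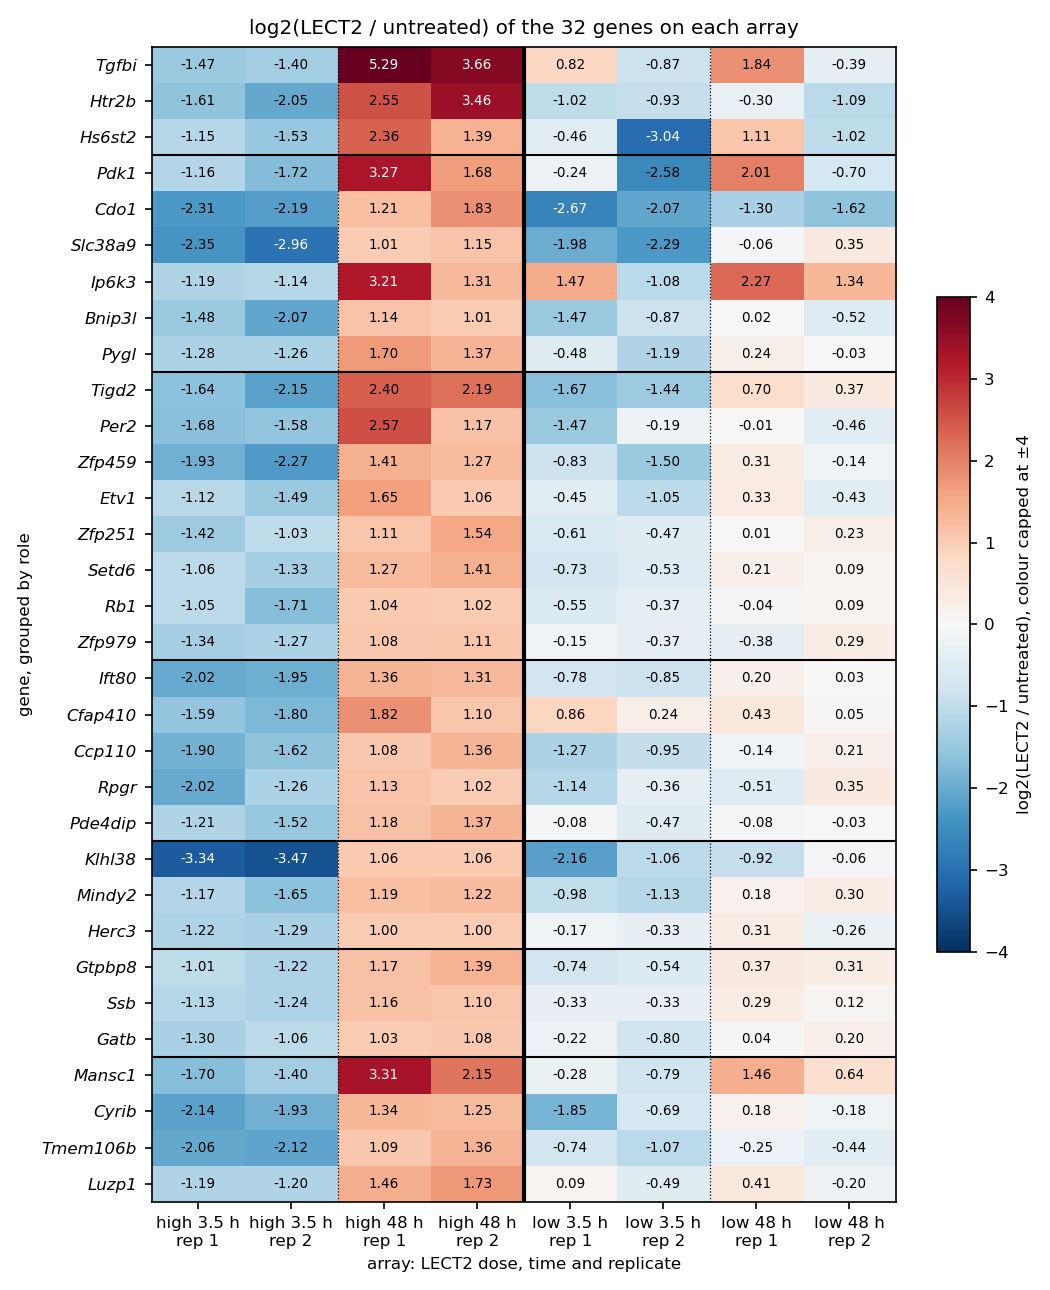
Heat map of the log2 ratio of LECT2-treated over untreated cells for the 32 genes (rows, grouped by role) on the 8 arrays (columns; dose, time and replicate), with each value printed in its cell. The 4 columns on the left chose the genes and hold values of at most -1 at 3.5 h and at least 1 at 48 h; on the right, low dose values at 3.5 h are mostly below 0 and those at 48 h lie on both sides of 0.

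The sequence upstream of a gene is shown for the member with the widest swing and for 3 members that also passed the test at the low dose. Promoter windows from 250 bases before to 50 after the start of transcription were taken from RefSeq on GRCm38.p6, which is not the build of the array, and 21 of the 32 genes matched an entry. Capitals mark the letters of any of 9 motifs on either strand; the strand printed is that of the gene.
Tgfbi (chr13:56609336-56609635, plus strand): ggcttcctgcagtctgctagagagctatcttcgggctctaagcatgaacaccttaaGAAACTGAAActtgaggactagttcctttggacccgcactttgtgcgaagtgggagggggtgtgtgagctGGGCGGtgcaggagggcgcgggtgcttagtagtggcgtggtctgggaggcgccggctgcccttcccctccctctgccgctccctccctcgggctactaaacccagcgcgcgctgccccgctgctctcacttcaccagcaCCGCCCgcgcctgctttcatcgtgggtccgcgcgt
Slc38a9 (chr13:112660516-112660815, plus strand): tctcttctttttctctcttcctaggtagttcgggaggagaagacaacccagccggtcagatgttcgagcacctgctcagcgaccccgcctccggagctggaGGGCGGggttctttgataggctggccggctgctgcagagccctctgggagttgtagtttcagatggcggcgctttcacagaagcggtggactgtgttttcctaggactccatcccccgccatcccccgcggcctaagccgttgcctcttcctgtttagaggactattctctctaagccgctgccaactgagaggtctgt
Zfp459 (chr13:67421369-67421668, minus strand): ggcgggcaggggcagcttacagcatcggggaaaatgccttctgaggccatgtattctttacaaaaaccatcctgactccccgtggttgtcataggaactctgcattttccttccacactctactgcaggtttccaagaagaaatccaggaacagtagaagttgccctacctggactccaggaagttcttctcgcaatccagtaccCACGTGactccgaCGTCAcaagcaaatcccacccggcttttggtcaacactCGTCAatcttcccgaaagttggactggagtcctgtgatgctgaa
Ccp110 (chr7:118712293-118712592, plus strand): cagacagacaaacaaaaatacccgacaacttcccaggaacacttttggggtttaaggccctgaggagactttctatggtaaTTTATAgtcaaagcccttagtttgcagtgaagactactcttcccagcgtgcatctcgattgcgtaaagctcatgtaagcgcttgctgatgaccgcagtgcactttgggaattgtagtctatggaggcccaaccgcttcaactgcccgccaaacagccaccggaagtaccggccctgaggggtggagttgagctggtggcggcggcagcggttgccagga

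The window of Tgfbi held letters of an interferon response element and a pair of GC boxes (GGGCGG), and that of Slc38a9 held 1 GC box. The window of Zfp459 held an E-box (CACGTG), which contains the hypoxia response core ACGTG on both strands, and a pair of cyclic AMP half-sites (TGACG), while that of Ccp110 held a TATA box (TATAAA) read on the other strand. Over the 27 windows of members, several genes having more than 1, the GC box was found in 55.6% against 53.7% of the 16372 windows of eligible genes. The half-site TGACG was found in 25.9% against 26.7%, ACGTG in 18.5% against 23%, CACGTG in 3.7% against 8.9% and CCAAT in 22.2% against 37.7%. TATAAA was found in 11.1% against 10.1%, an NF-kB site in 11.1% against 9.9% and an interferon response element in 3.7% against 3.2%. The AP-1 site TGANTCA was in 4 of the 27 member windows, which belong to Gtpbp8, Htr2b and Rpgr, or 14.8% against 6.3% of all windows. The median CpG count was 17 in both sets and the median GC content 57.7% in members and 58.7% in all. These matches are a description of letters, not of sites in use.

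Tgfbi, Htr2b and Hs6st2 act at the cell surface or in the matrix, and the widest swing, that of Tgfbi, was among them. Tgfbi encodes a secreted matrix protein, induced by TGF-beta, that cells adhere to through integrins. With the high dose it stood at -1.47 and -1.40 at 3.5 h and at 5.29 and 3.66 at 48 h, on average 2.71-fold below and then 22.2-fold above untreated cells. At the low dose the replicates went apart: its values were 0.82 and -0.87 at 3.5 h and 1.84 and -0.39 at 48 h, higher in replicate 1 and lower in replicate 2 at both times. Htr2b encodes the serotonin 2B receptor, which couples to Gq. It stood at -1.61 and -2.05 and then at 2.55 and 3.46 with the high dose, but its early LECT2 signal was not above background, so the size of its swing is not settled. Htr2b was below untreated cells on all 4 low dose arrays, at -1.02 and -0.93 early and -0.30 and -1.09 late. Hs6st2, a heparan sulfate 6-O-sulfotransferase, stood at -1.15 and -1.53 and then at 2.36 and 1.39. Its low dose arrays differed most from each other at 3.5 h, at -0.46 and -3.04, a gap of 2.58.

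Tgfbi was the member on the list of matrix proteases and inhibitors, and 26 others were tested. With the high dose 8 of these rose and 4 fell at 3.5 h, and 2 rose and 6 fell at 48 h (limma, adjusted p under 0.05). Mmp8, a collagenase, fell at 3.5 h, at -1.32 ± 0.27, and stood at 0.97 ± 0.27 at 48 h, which did not pass (adjusted p = 0.0141 and 0.0591). Mmp12, the macrophage elastase, fell at both times, at -1.53 ± 0.42 and then -3.02 ± 0.42 (adjusted p = 0.0373 and 0.00884, limma). Over all 26148 features tested, 10.2% rose and 11.7% fell at 3.5 h, and 4.34% rose and 6.94% fell at 48 h, with the high dose in this fit.

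The 6 metabolic genes ranged from fuel use to amino acid sensing. Pdk1 encodes a pyruvate dehydrogenase kinase, and its values with the high dose were -1.16 and -1.72 early and 3.27 and 1.68 late. Like Tgfbi it split between replicates at the low dose, at -0.24 and -2.58 early and 2.01 and -0.70 late, where the gap of 2.71 at 48 h was the widest of any member. Pygl, the liver form of glycogen phosphorylase, which releases glucose units from glycogen, was the brightest member. Pygl stood at -1.28 and -1.26 and then at 1.70 and 1.37. Bnip3l, a mitophagy receptor of the outer mitochondrial membrane, stood at -1.48 and -2.07 and then at 1.14 and 1.01.

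Slc38a9 and Cdo1 concern amino acids. Slc38a9 encodes a lysosomal arginine sensor that signals to mTORC1; its high dose values were -2.35 and -2.96 early and 1.01 and 1.15 late. With the low dose it was also low at 3.5 h, at -1.98 and -2.29, and near 0 at 48 h, at -0.06 and 0.35. Cdo1 encodes cysteine dioxygenase, the first enzyme of cysteine breakdown. It stood at -2.31 and -2.19 and then at 1.21 and 1.83 with the high dose. At the low dose Cdo1 was below untreated cells on every array, at -2.67 and -2.07 at 3.5 h and -1.30 and -1.62 at 48 h. Ip6k3, an inositol hexakisphosphate kinase, stood at -1.19 and -1.14 and then at 3.21 and 1.31. Ip6k3 was the dimmest member and was well above background in neither channel of the low dose 3.5 h arrays, so its values there, 1.47 and -1.08, have no direction.

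Pdk1 was the member on the list of glycolysis and hypoxia genes. Of all features tested with the high dose, 4.34% rose and 6.94% fell at 48 h, and 10.2% rose and 11.7% fell at 3.5 h. With the high dose 10 of the 25 other genes of that list rose and 0 fell at 48 h, with a median of 1.19, while 5 rose and 2 fell at 3.5 h, with a median of -0.14. Among those that rose at 48 h were Bnip3, a mitophagy receptor, by 3.24 ± 0.48, and Egln3, an oxygen-sensing prolyl hydroxylase, by 2.80 ± 0.46 (adjusted p = 0.0108 and 0.0135, limma). Hk2, a hexokinase, and Slc2a1, a glucose transporter, rose at both times: Hk2 by 1.27 ± 0.29 and 1.66 ± 0.29, and Slc2a1 by 1.44 ± 0.33 and 1.54 ± 0.33. Early, Ankrd37 and Car9 fell, to -1.60 ± 0.40 and -1.23 ± 0.24 (adjusted p = 0.0281 and 0.0121). At the low dose Adm rose and Vegfa fell at 3.5 h, and 0 of the 25 passed in either direction at 48 h. Of all features 2.74% rose and 2.15% fell at 3.5 h with that dose, and 0.153% rose and 0.0191% fell at 48 h.

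The 8 nuclear genes had high dose means between -2.10 and -1.20 early and between 1.03 and 2.30 late. Tigd2, derived from a DNA transposase of the tigger type, had the widest swing of these: -1.64 and -2.15 early and 2.40 and 2.19 late. With the low dose Tigd2 followed in the same order, at -1.67 and -1.44 at 3.5 h and at 0.70 and 0.37 at 48 h. Zfp459, a zinc finger gene, stood at -1.93 and -2.27 and then at 1.41 and 1.27, with low dose values of -0.83 and -1.50 early and 0.31 and -0.14 late. The zinc finger genes Zfp251 and Zfp979 also met the rule, which made 3 of the 32 members, or 9.38%, against 339 genes with a Zfp symbol among all eligible genes, or 2.03%. Zfp251 stood at -1.42 and -1.03 and then at 1.11 and 1.54, and Zfp979 at -1.34 and -1.27 and then at 1.08 and 1.11.

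Per2 encodes a repressor of the circadian clock. It stood at -1.68 and -1.58 early and at 2.57 and 1.17 late with the high dose, and at -1.47 and -0.19 and then -0.01 and -0.46 with the low dose. With the high dose 10.2% of all features tested rose and 11.7% fell at 3.5 h, and 4.34% rose and 6.94% fell at 48 h. Of the 18 other clock genes tested, 1 rose and 2 fell at 3.5 h with the high dose, and 1 rose and 1 fell at 48 h. Nr1d2, a nuclear receptor of the clock, and Tef, a PAR-domain factor, stood at -2.46 ± 0.72 and -1.05 ± 0.24 at 3.5 h, the pair that fell, while Cry1, another repressor, rose by 1.00 ± 0.27 (adjusted p = 0.0466, 0.0207 and 0.0354, limma). Of the other Per genes, Per1 had values of -0.66 ± 0.22 early and 0.50 ± 0.22 late that did not pass (adjusted p = 0.0704 and 0.185, limma). Per3 stood at -0.12 ± 0.38 early and -1.18 ± 0.38 late and did not pass either (adjusted p = 0.85 and 0.0841, limma).

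Etv1 is an ETS transcription factor, Rb1 the retinoblastoma protein that restrains entry into the cell cycle, and Setd6 a lysine methyltransferase that acts on the NF-kB subunit RelA. Etv1 stood at -1.12 and -1.49 and then at 1.65 and 1.06. Setd6 stood at -1.06 and -1.33 and then at 1.27 and 1.41. The values of Rb1 were -1.05 and -1.71 early and 1.04 and 1.02 late. In all 3 the low dose values at 3.5 h were negative on both arrays, between -0.37 for Rb1 and -1.05 for Etv1, and at 48 h they lay between -0.43 and 0.33.

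Genes of the cilium and centrosome were the third largest group, with high dose means between -1.98 and -1.37 early and between 1.07 and 1.46 late. Ift80 is a subunit of the intraflagellar transport train; it stood at -2.02 and -1.95 and then at 1.36 and 1.31, and at -0.78 and -0.85 and then 0.20 and 0.03 at the low dose. Ccp110, which caps centrioles and blocks cilium growth, stood at -1.90 and -1.62 and then at 1.08 and 1.36. Its low dose values were -1.27 and -0.95 early and -0.14 and 0.21 late. Rpgr, a protein of the ciliary transition zone, stood at -2.02 and -1.26 and then at 1.13 and 1.02, and Pde4dip, a scaffold of centrosome and Golgi, at -1.21 and -1.52 and then at 1.18 and 1.37. Cfap410, a cilium protein, stood at -1.59 and -1.80 and then at 1.82 and 1.10 with the high dose. With the low dose it was above untreated cells on all 4 arrays, at 0.86 and 0.24 early and 0.43 and 0.05 late, the only member positive on both low dose 3.5 h arrays.

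In the ubiquitin pathway, Klhl38, a kelch protein of a family that includes substrate adaptors of ubiquitin ligases, had the deepest early value of all members. It stood at -3.34 and -3.47 at 3.5 h, 10.6-fold below untreated cells, and at 1.06 and 1.06 at 48 h. Its low dose values were -2.16 and -1.06 early and -0.92 and -0.06 late. Mindy2, a deubiquitinase, stood at -1.17 and -1.65 and then at 1.19 and 1.22, with close low dose pairs of -0.98 and -1.13 and of 0.18 and 0.30. Herc3, a HECT-type ubiquitin ligase, lay just inside the rule at -1.22 and -1.29 and then 1.00 and 1.00.

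Ssb, the La protein that binds new RNA polymerase III transcripts, and Gatb, a subunit of the mitochondrial glutaminyl-tRNA amidotransferase, were grouped with Gtpbp8, a GTP-binding protein. Their swings, between 2.24 and 2.39, were among the narrowest, beside that of Herc3 at 2.26. Their replicates were close: Ssb stood at -1.13 and -1.24 and then at 1.16 and 1.10. Of the remaining genes, Tmem106b encodes a lysosomal membrane protein and Cyrib a protein that binds Rac1 and limits actin branching. Tmem106b stood at -2.06 and -2.12 and then at 1.09 and 1.36, and Cyrib at -2.14 and -1.93 and then at 1.34 and 1.25. Mansc1, a membrane protein with a MANSC domain, stood at -1.70 and -1.40 and then at 3.31 and 2.15, with low dose values of -0.28 and -0.79 early and 1.46 and 0.64 late. Luzp1, a leucine zipper protein of the cytoskeleton, stood at -1.19 and -1.20 and then at 1.46 and 1.73.

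A ratio can turn because the LECT2-treated cells changed over time or because the untreated cells did, so both channels of the high dose arrays were read on a common log2 scale (loess within arrays, then Aquantile between them). The LECT2 channel was higher at 48 h than at 3.5 h in all 32 genes, by 0.84 to 4.17 with a median of 2.03, which the rule itself favours. The untreated channel moved little in 18 genes, by at most 0.5 either way; it was lower at 48 h by more than 0.5 in 11 and higher by more than 0.5 in 3, with a median of -0.14. Over all features the medians of these shifts were 0.03 in the untreated and -0.03 in the LECT2 channel.

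Tigd2, Slc38a9, Htr2b and Zfp459 had nearly flat untreated levels, with shifts of 0.19, -0.04, -0.08 and -0.08. In Tigd2 the LECT2 channel went from 8.01 to 11.83 (mean of 2 arrays). In Tgfbi both channels moved: the untreated level was 12.67 and 12.81 at 3.5 h and 9.96 and 11.63 at 48 h, and the LECT2 level 11.42 and 11.49 and then 15.16 and 15.26. Mansc1 differed from these, since its untreated level was 1.93 lower at 48 h while its LECT2 level was 0.84 higher. Cfap410, Cdo1, Per2 and Ssb also had lower untreated levels at 48 h, by 1.80, 1.28, 1.24 and 1.24. Tmem106b and Hs6st2 went the other way, with untreated levels 1.39 and 1.27 higher at 48 h and LECT2 levels 4.17 and 3.59 higher.

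**Figure D2:**
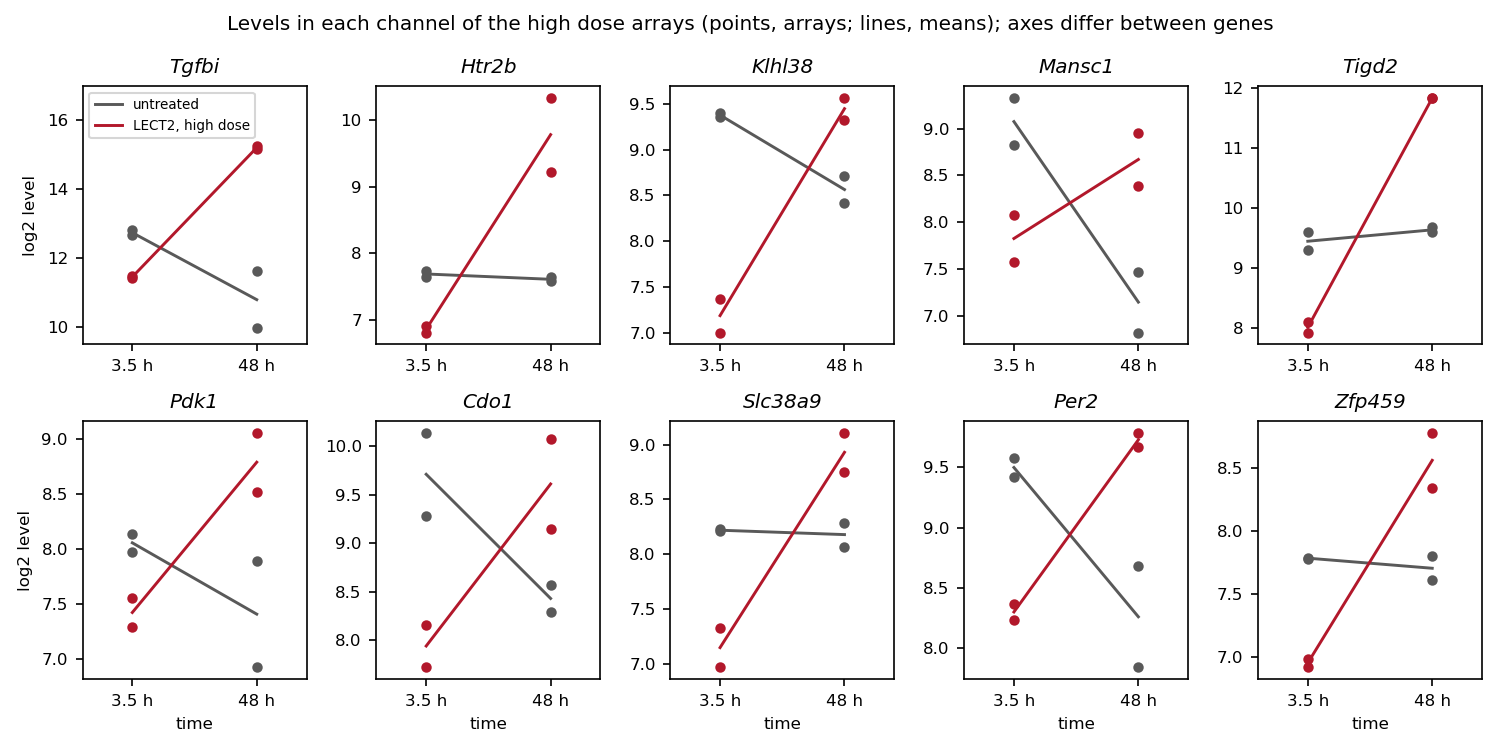
Log2 levels of the 10 members with the widest swing in the untreated channel (grey) and the LECT2 channel (red) of the high dose arrays at 3.5 and 48 h; points are arrays, lines join the means of 2, and the vertical scale differs between genes. The red line crosses the grey line upwards in all 10. The grey line is nearly flat in Htr2b, Tigd2, Slc38a9 and Zfp459 and falls in Tgfbi, Mansc1, Cdo1, Per2, Klhl38 and Pdk1.

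Some early values were limited by background. At 3.5 h with the high dose 16 of the 32 genes were well above background in the LECT2 channel on both arrays, against 32 at 48 h. The rule itself favours this order. In the untreated channel 29 of the 32 were so at 3.5 h and 31 at 48 h. For 6 genes the LECT2 channel was not well above background on either early array, so the size of their fall is not settled. There each array's level was set at the higher of the dimmest probe well above background and the gene's own. By this measure untreated cells had 2.1-fold more Slc38a9, 1.95-fold more Cyrib, 1.78-fold more Htr2b and Zfp459, 1.64-fold more Hs6st2 and 1.6-fold more Ip6k3. These folds equal or lie close to the observed ratios of the channel levels, so they are not firm lower limits. Their scale is that of the channel levels, on which ratios of dim genes are smaller than in the value table.

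The low dose ratios were not among the values that chose the genes, although those arrays counted in the filter on background, and they allowed a test. limma was fitted to all 8 arrays with 4 group means over 26148 features, of which 16691 had a RefSeq mRNA accession like the members and 9457 were other or unnamed transcripts; p-values were adjusted over all of them by the Benjamini-Hochberg method, and 0.05 was the threshold. At 3.5 h the members had a median of -0.78 against 0.00 over all features, and 30 of the 32 were below 0. There 7 members (21.9%) fell and 0 rose, where 2.15% of all features and 2.81% of those with an mRNA accession fell. On the single arrays the members' values ran from -2.67 to 1.47 in replicate 1 and from -3.04 to 0.24 in replicate 2. Over all features 717 rose and 561 fell; with median centring of the matched files the counts were 760 and 2481, the median of all features moved to -0.13, and 18 members fell. Without the low dose arrays of replicate 1 the members' median was -0.86, beside 0.02 over all features, and 31 of the 32 were below 0. Without those of replicate 2 the median was -0.67, beside -0.02, and 28 were below 0. The 7 calls did not hold without replicate 1 and held in part without replicate 2. With the low dose arrays fitted alone, so that the high dose arrays that chose the genes added nothing to the estimate of spread, 2 members fell, Cdo1 and Slc38a9, where 0.256% of all features fell. With the files as recorded 0 members fell and the members' median was -0.19.

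Cdo1 fell most, to -2.37 ± 0.26, followed by Slc38a9 at -2.14 ± 0.24 (adjusted p = 0.00526 and 0.00623, limma, n = 2 arrays). Klhl38 was at -1.61 ± 0.32 and Tigd2 at -1.56 ± 0.23 (adjusted p = 0.0346 and 0.0135). The other 3 were Zfp459, Ccp110 and Mindy2, with changes of -1.17 ± 0.25, -1.11 ± 0.22 and -1.05 ± 0.21 (adjusted p = 0.0435, 0.0358 and 0.0374). These 7 spread over metabolism, nuclear genes, the centrosome and the ubiquitin pathway. A brighter probe of Slc38a9 did not share its call: its values at the low dose were 2.39 and -1.48 at 3.5 h. Bnip3l, Cyrib and Tmem106b came close, at -1.17 ± 0.27, -1.27 ± 0.30 and -0.90 ± 0.21 (adjusted p = 0.0512, 0.0549 and 0.0549). Tgfbi, first in swing at the high dose, was at -0.03 ± 0.62. Counted by size alone, 4 members (Slc38a9, Klhl38, Cdo1 and Tigd2), or 12.5%, were at -1 or below on both low dose arrays at 3.5 h, against 2.44% of all features.

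At 48 h the low dose gave no such shift. The members had a median of 0.10 against 0.02 over all features, with 21 above and 11 below 0. By limma 0 of the 32 rose or fell, where 0.153% of all features rose. An unadjusted p under 0.05 in the positive direction was found for 3 members (limma), against 5.27% of all features. Over all features 40 rose and 5 fell; with median centring the counts were 17 and 26 and the members' median was -0.21, beside -0.14 over all features. The highest means were those of Ip6k3, 1.81 ± 0.63, and Mansc1, 1.05 ± 0.34 (adjusted p = 0.397 and 0.349). Ip6k3 was the 1 member, or 3.1%, at 1 or above on both arrays, against 1.22% of all features. Cdo1 was still low at -1.46 ± 0.26 (adjusted p = 0.0968).

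**Figure D3:**
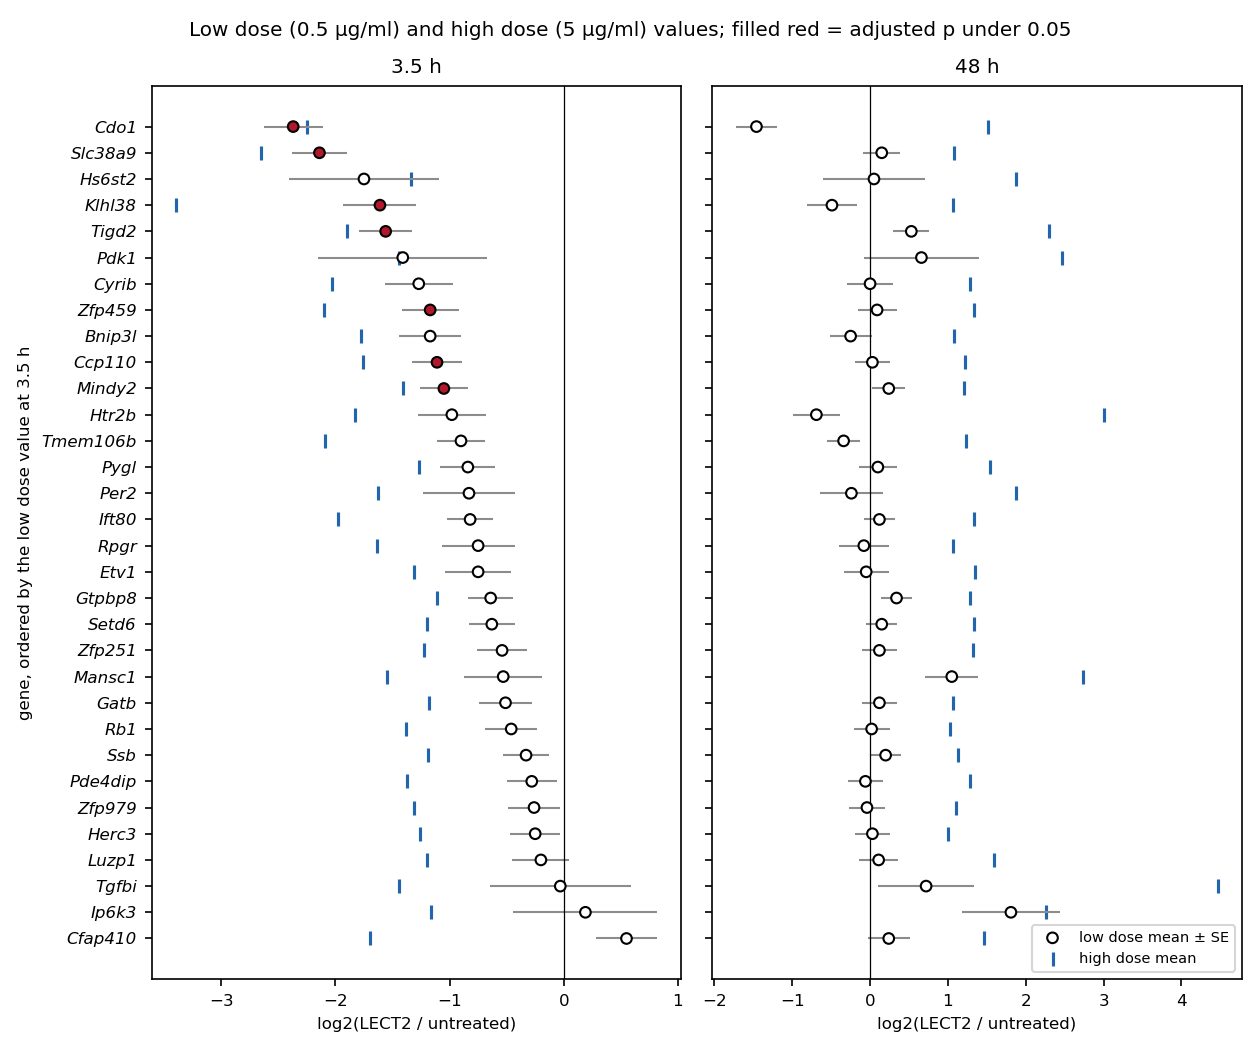
Low dose log2 ratios of the 32 genes (circles, mean of 2 arrays ± SE of the limma fit; filled red where the adjusted p was under 0.05) at 3.5 h (left) and 48 h (right), with the high dose means as blue bars. At 3.5 h 30 circles lie below 0 and 7 are filled; at 48 h none is filled and the circles spread around 0 while every blue bar is at 1 or more.

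The difference between the times was tested in the same fit. At the low dose the value at 48 h exceeded that at 3.5 h in 31 of the 32 genes, with a median difference of 0.85 against 0.02 over all features; Cfap410, at -0.31 ± 0.38, was the exception. By limma 0 members passed, where 0.0153% of all features rose, that is 4 rising against 22 falling, while 14 members and 4.85% of all features had an unadjusted p under 0.05 in that direction. With loess on the matched files 1 member, Klhl38, passed and the counts over all features were 65 and 172; with median centring they were 21 and 90. Slc38a9 and Tigd2 had the largest differences, 2.29 ± 0.34 and 2.09 ± 0.32 (adjusted p = 0.0845 and 0.0954).

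The sources used here do not give whether low and high dose arrays with the same replicate number shared their untreated RNA. Their untreated channels correlated at 0.995 and 0.996 at 48 h and at 0.971 and 0.991 at 3.5 h, against 0.958 to 0.986 between replicate numbers. If that RNA was shared, an unusual level of it would move both doses together, and the low dose ratios are then not independent of the rule.

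The LECT2 channel alone does not use untreated RNA, so its level on the low dose arrays was compared between 48 and 3.5 h (quantile scaling, limma on 4 arrays, 25954 features). There 7 members (21.9%) rose and 1 (3.1%) fell, where 5.6% of all features rose and 5.26% fell. The members' median shift was 0.54 against 0.00 over all features. Tmem106b rose by 1.97 ± 0.18, Hs6st2 by 1.70 ± 0.23 and Tigd2 by 1.67 ± 0.18 (adjusted p = 0.0182, 0.0265 and 0.0217). Gtpbp8, Pygl, Ccp110 and Rb1 rose by 1.25 ± 0.16, 1.04 ± 0.15, 0.90 ± 0.16 and 0.85 ± 0.16 (adjusted p = 0.026, 0.0296, 0.0375 and 0.0424). Cfap410 fell by 1.99 ± 0.16 (adjusted p = 0.0174). Tigd2 and Ccp110 were thus the members that passed both here and in the low dose ratio at 3.5 h. The untreated level of every member that passed here moved the same way on the low dose arrays. It shifted by 1.54 in Tmem106b, 1.25 in Hs6st2, 0.55 in Tigd2 and -1.69 in Cfap410. The shifts of Gtpbp8, Rb1, Pygl and Ccp110 were 0.49, 0.37, 0.20 and 0.20. With scaling to the 75th percentile 0 members passed, the median of all features was 0.72 and that of the members 1.16, and over all features 1 rose and 15 fell. Without the low dose 48 h array of replicate 1 or 2 the members' median shift was 0.64 or 0.40. Without the 3.5 h array of replicate 1 or 2 it was 0.57 or 0.51. Over all features these medians lay between -0.01 and 0.01, and no call held with every array left out in turn.

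For 12 of the 32 genes other probes above background were on the array, and these did not always follow. Of 20 such probes 15 were negative on both high dose 3.5 h arrays, and 11 were also positive on both 48 h arrays. All other probes of Bnip3l, Cfap410, Herc3, Ssb and Zfp979 kept the pattern. In Bnip3l the 3 other probes had means of -1.72, -1.66 and -1.26 early and 0.99, 0.53 and 0.27 late. In Ssb the other probe, the brighter one, stood at -0.79 and -0.84 and then at 0.85 and 0.97.

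The other 7 genes had at least 1 probe without the pattern. The brightest probe of Tmem106b stood at 0.54 and 0.18 early and -0.55 and 1.17 late, and the brightest of Luzp1 at 0.37 and 0.34 and then 0.68 and 0.42. In Rpgr a pair of probes followed, with early means of -1.32 and -1.11, while the brightest stood at 1.38 and 1.24 early. Dimmer probes of Mindy2 and Pde4dip went their own ways, and 1 of 2 other probes of Slc38a9 was negative at both times, with means of -1.47 and -0.76. For these genes the course described above is that of the probe that met the rule. Which transcripts the probes share was not analysed here.

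**Figure D4:**
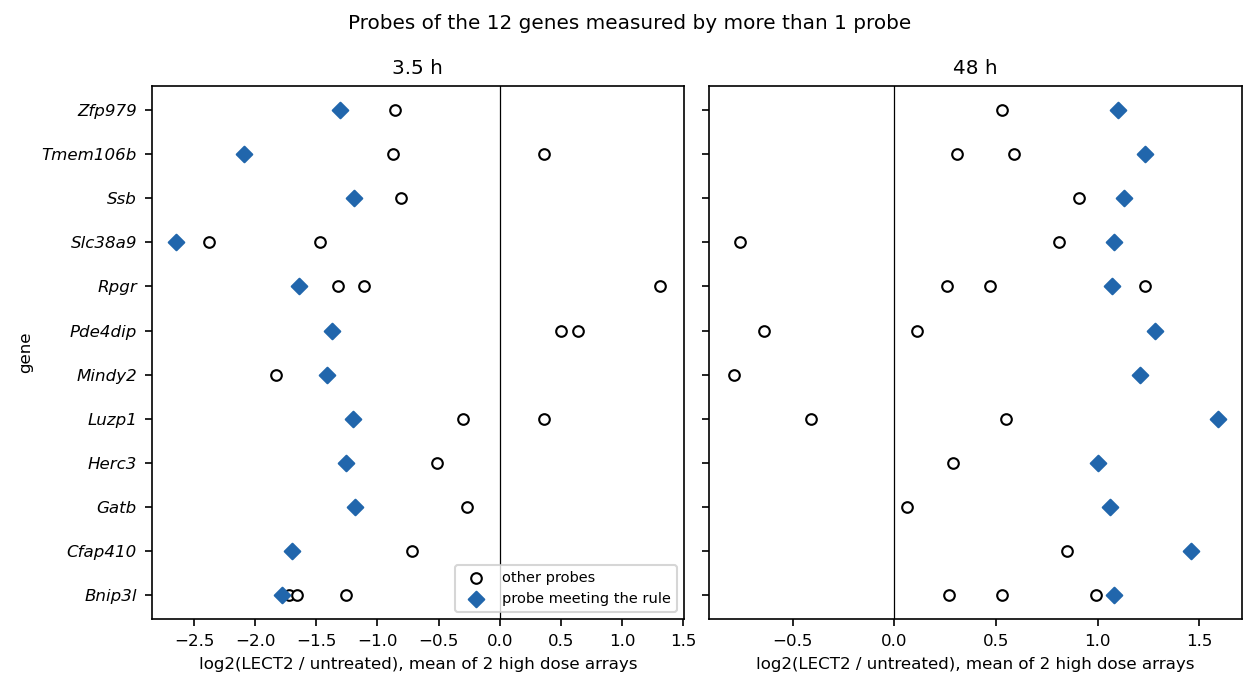
Mean high dose log2 ratio (2 arrays) at 3.5 h (left) and 48 h (right) of the probe that met the rule (blue diamonds) and of the other probes above background (open circles) for the 12 genes with more than 1 probe. Open circles lie mostly closer to 0 than the diamonds; at 3.5 h those right of 0 belong to Tmem106b, Rpgr, Pde4dip and Luzp1.

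At the edge of the rule the values pass without a break. The members nearest the threshold were Herc3, Slc38a9 and Gtpbp8, whose smallest distances from 0 over the 4 high dose arrays were 1.002, 1.006 and 1.011. Just outside lay Abhd3 at 0.991 and Ankrd37, a hypoxia-induced ankyrin repeat gene, at 0.986. Replicates of the members differed by a median of 0.26 at 3.5 h and 0.22 at 48 h with the high dose, and by 0.55 and 0.39 with the low dose. A further 7 probes without a curated mRNA accession met the thresholds and were not counted.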

How the data were processed

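Total RNA was amplified and labelled per the labels' protocols and read on 8 arrays, 2 for each dose and time. The p-values rest on the spread between arrays of the same group, pooled over the groups of a fit. limma also draws each gene's spread towards that of all genes. The main values were the log2 ratios of the deposited value table, untreated over LECT2, whose sign was turned; scale and direction were checked against the log10 ratios in the deposited scanner files, written by Agilent Feature Extraction 10.7.3.1 per the submitters' processing notes. The deposited scanner files also hold spot intensity values for both dyes, which were used for channel levels and for alternatives after normexp background correction (offset 50), with 1377 control spots and outlier spots (at most 1.42% of an array) left out. Each array yielded 39429 probes, of which 26412 had a gene name. Precision was limited by the number of arrays.

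The members and the gene lists were chosen with earlier results of these data known. Genes were tested with limma 3.58.1 in R 4.3.3 on the brightest probe per gene, or the probe that met the rule, without pairing of replicates. The labels number the replicates but do not say whether a number marks the same experiment in every group. Deviations of same-numbered arrays correlated between -0.06 and 0.47 over 6 pairs of groups, not above 0.1 in all, so the main fit had no block and the blocked fit is an alternative. Named genes were the 10 widest swings in the value table, up to 4 members per list, up to 6 members passing each low dose test, the 3 nearest to the threshold on each side and members whose probes disagreed; the remaining members are given for completeness. Some genes that this rule or a list names are not reported here. Alternatives were other filters, variance models, normalizations, file assignments and leaving out each replicate.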

Additional observations from a re-analysis of the deposited data

How the results depend on the processing

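The number of genes meeting the rule was 75 at a threshold of 0.8 and 2 at 1.5, 24 with each gene's brightest probe taken before the rule, 16 when both channels had to be above background on all 8 arrays, 9 with loess on the matched files, 6 with median centring, of which 3 were among the 32, and 0 with files as recorded; leaving out each replicate gave 157 to 195. The count of members that fell at the low dose at 3.5 h was 3 with no filter, 2 with the low dose arrays alone, 18 with median centring, 0 with files as recorded, and 1 to 4 with a replicate left out of the low dose groups, where the remaining array was assumed to vary like the others; 1, without replicate 1, was Hs6st2, and 4, without replicate 2, included Cdo1, Slc38a9 and Klhl38. For the difference between the times the count of 0 became 1 with the strict filter (Tigd2) and 1 with loess (Klhl38), and at 48 h it stayed 0 for rising members under all 11 alternatives run, while Cdo1 fell under the strict filter. In the LECT2 channel the count of 7 became 0 with scaling to the 75th percentile, 0 with files as recorded, and 0 to 13 with an array left out. The members' median at 3.5 h was -0.51 with loess and -0.19 with files as recorded, and at 48 h it was -0.21 with median centring. With the replicate number as a block 8 members fell at 3.5 h, where 711 of 26148 features fell. With the same block 0 members passed at 48 h and 0 passed for the difference. In the LECT2 channel 5 members rose with it, where 1046 of 25954 features rose. The cause of these shifts was not tested. For 6 genes dim early levels leave the size of the fall unsettled.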

Other observations

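Cdo1 was the 1 member whose low dose values stayed at -1 or below on all 4 arrays while its high dose values passed from -2.25 to 1.52 on average. The difference between the doses at 48 h was not tested, since the high dose arrays chose the gene. Among members above background, the low dose replicates lay farthest apart in Pdk1, Hs6st2 and Tgfbi, picked here for those gaps. In Hs6st2 the pairs were -0.46 and -3.04 at 3.5 h and 1.11 and -1.02 at 48 h.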
